A study of Mus musculus with 7 samples.

Results

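The suprabasal epidermal keratins are taken here as the 8 genes Krt1, Krt2, Krt9, Krt10, Krt76, Krt77, Krt78 and Krt80, chosen by name from a count table of 55423 features. All 8 passed the filter on low counts, which kept 24433 genes, although Krt2 and Krt9 reached its minimum of 5 reads only in Ivl:BRAFV600E tumours and so could be tested only in that direction. Their RNA was compared in bulk mouse skin tumours labelled cutaneous squamous cell carcinoma. The 3 Ivl:BRAFV600E tumours express oncogenic BRAF in the involucrin-positive (IVL+) cells of the skin after recombination by a tamoxifen-inducible Cre (CreERT2) driven by the involucrin promoter. The 3 Ivl:BRAFV600E-SOX2LSL tumours carry the same Cre and BRAF alleles, received the same topical tamoxifen on the back, and also switch on SOX2 with an eGFP reporter from the Rosa26 locus. Mice of both groups were 7 to 10 weeks old at induction according to the labels, and tumours were grown to the clinical endpoint. The comparison asks what SOX2 adds to BRAF-driven tumours of IVL+ origin. All Ivl:BRAFV600E-SOX2LSL tumours were collected earlier after induction than all Ivl:BRAFV600E tumours, so that genotype and tumour age cannot be told apart. The tumours of a group are numbered 1 to 3 only as names.

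Keratins are the intermediate filament proteins of epithelial cells, and each filament pairs a type I with a type II keratin. In the basal layer of the epidermis the pair is Krt14 with Krt5. When a keratinocyte leaves that layer and starts to differentiate it switches to Krt10 with Krt1, and further keratins are added in higher layers or at particular body sites, such as Krt9 in the thick skin of palms and soles. Loss of Krt1 and Krt10 is a known feature of poorly differentiated squamous tumours.

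The 2 type I members lie on chromosome 11 of GRCm38, namely Krt10 (ENSMUSG00000019761, 99385254 to 99389364) and Krt9 (ENSMUSG00000051617, 100186781 to 100193246). The 6 type II members lie on chromosome 15 in the order Krt80 (ENSMUSG00000037185, 101347444 to 101370162), Krt2 (ENSMUSG00000064201, 101810689 to 101818169), Krt1 (ENSMUSG00000046834, 101845426 to 101850794), Krt77 (ENSMUSG00000067594, 101858731 to 101869705), Krt76 (ENSMUSG00000075402, 101884351 to 101892920) and Krt78 (ENSMUSG00000050463, 101946001 to 101954287). All 8 are read from the minus strand. No stretch of 50 bases in the transcripts of 7 members occurs in any other gene, and in Krt76 0.265% of such stretches do. Exons of Krt10, Krt76 and Krt80 overlap the antisense genes Gm11940, Gm44356 and Gm35853, and because it is not stated whether strand was used in counting, reads of such partners cannot be told apart. In the table these antisense genes held at most 127, 0 and 109 counts in a tumour, few beside those of Krt10 and Krt80, whereas Gm44356 had none.

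Promoters in RefSeq (GRCm38.p6) were matched for 6 members, all but Krt1 and Krt80. Of these, 3 are shown because they stand for the 3 patterns described further on, an abundant keratin that was lower with SOX2 (Krt10), a keratin near the counting limit with SOX2 (Krt9) and the only member with higher levels in some tumours with SOX2 (Krt77). Each line gives the 250 bases before the start of the gene, on its own minus strand, from chr11:99389365-99389614, chr11:100193247-100193496 and chr15:101869706-101869955. Capitals mark matches to the motifs named after the sequences.
Krt10: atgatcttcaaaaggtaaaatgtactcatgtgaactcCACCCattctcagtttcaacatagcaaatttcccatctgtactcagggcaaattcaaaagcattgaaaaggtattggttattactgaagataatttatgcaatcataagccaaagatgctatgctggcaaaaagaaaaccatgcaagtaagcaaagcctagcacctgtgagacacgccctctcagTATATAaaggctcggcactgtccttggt
Krt9: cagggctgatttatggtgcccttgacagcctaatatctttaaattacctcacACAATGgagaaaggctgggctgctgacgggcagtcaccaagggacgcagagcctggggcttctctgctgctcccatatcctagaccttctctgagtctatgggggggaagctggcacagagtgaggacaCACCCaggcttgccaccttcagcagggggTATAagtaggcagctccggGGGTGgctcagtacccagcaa
Krt77: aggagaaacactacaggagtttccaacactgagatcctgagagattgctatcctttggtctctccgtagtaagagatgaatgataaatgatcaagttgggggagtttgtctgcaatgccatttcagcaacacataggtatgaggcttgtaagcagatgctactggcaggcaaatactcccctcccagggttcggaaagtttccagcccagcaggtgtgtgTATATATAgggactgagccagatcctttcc
The motifs searched on both strands were TGANTCA (AP-1), CACCC (the core read by KLF factors), ACAAAG and ACAATG (SOX cores) and a p53-family pair of CATG cores with 6 bases between them, and TATA was added after the sequences had been seen. TATA stood close before the start in 5 of the 6 promoters, with the outermost match beginning 28 bases upstream in Krt10, 29 in Krt2 and Krt76, 40 in Krt9 and 30 in Krt77, while Krt78 had none, and matches overlapped in Krt2, Krt10 and Krt77. Of all 32851 RefSeq promoter windows of this length, 34.0% held TATA anywhere. CACCC was found in Krt2, Krt9, Krt10 and Krt76 and in 52.0% of all windows. The only SOX core among the 6 was an ACAATG in Krt9, 198 to 193 bases upstream, and the shares of all windows with ACAAAG and ACAATG were 16.5% and 10.7%. TGANTCA (6.75% of all windows) and the pair of CATG cores (0.490%) were in none of the 6. The Krt10 and Krt77 windows therefore hold no SOX core spelled in these letters.

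Library depth was similar in both groups, with 23565432 to 31152826 counts on genes per tumour, so that 3 counts, taken as the smallest level told from 0, came to 0.0839 to 0.143 CPM. CPM stands for counts per 1 M after TMM scaling, and intervals and floors cover counting error only. The genotypes were checked by Sox2, which was at 0.238 to 0.716 CPM in Ivl:BRAFV600E and 155 to 182 CPM in Ivl:BRAFV600E-SOX2LSL tumours, and by EGFP, which had 0 counts in the former and at least 3132 in the latter. Ivl:BRAFV600E-SOX2LSL tumour 1 stood apart from the other 2 tumours of its group in most of the values that follow. Fold changes and adjusted p-values are from edgeR's quasi-likelihood test across all 24433 genes with Benjamini-Hochberg adjustment, and a gene is called at an adjusted p below 0.05. A single-gene exact permutation test of 3 tumours against 3 could not go below p = 0.1.

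Of the 8 suprabasal keratins, 7 had lower values in every Ivl:BRAFV600E-SOX2LSL tumour than in any Ivl:BRAFV600E tumour. The share of all tested genes without overlap in that direction was 16%, and in the other direction, which held no member, 18.2%. By the edgeR test 2 members, Krt9 and Krt76, were called lower and 0 higher, against 1.51% and 2.39% of all genes called in these directions. Of the 2, Krt9 could be called only lower. The median log2 fold change of the 8 was -2.65, beside 0.04 over all genes tested, and because it lies between the values of Krt10 and Krt1 it does not depend on the fitted values of the genes near the counting limit. A bulk level cannot tell fewer differentiated cells from less keratin RNA per cell.

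**Figure D1:**
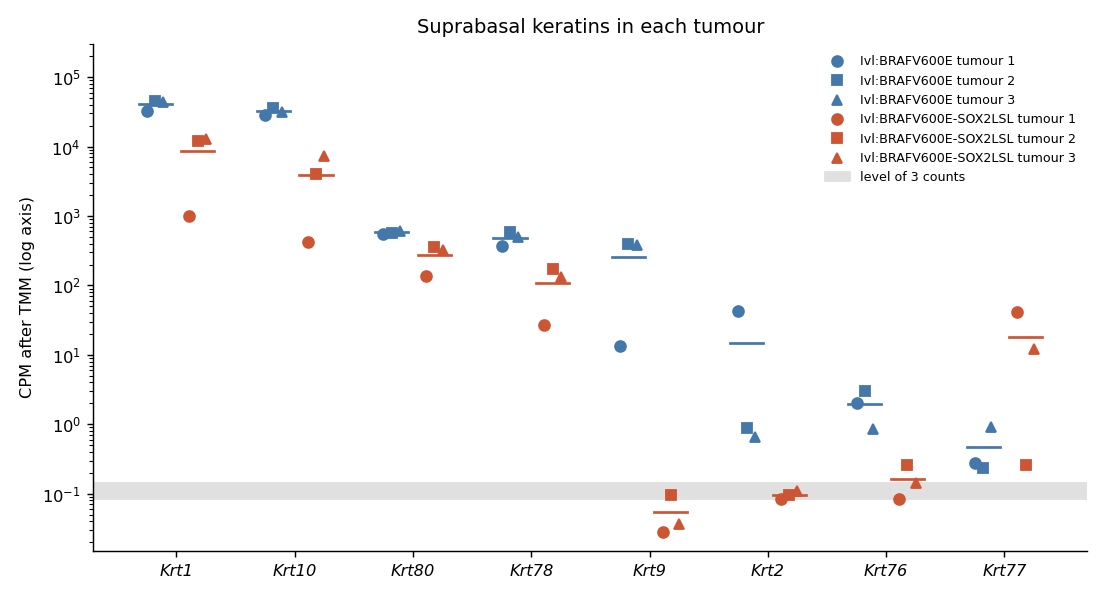
CPM after TMM on a log axis for each suprabasal keratin in the 3 Ivl:BRAFV600E tumours (blue) and the 3 Ivl:BRAFV600E-SOX2LSL tumours (red), with symbols for tumours 1, 2 and 3, lines for group means and a grey band for the level of 3 counts. The red points lie below all blue points for 7 of the 8 genes, and for Krt77 tumours 1 and 3 lie above and tumour 2 within the blue points.

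Krt1 and Krt10 form the filament pair that marks the first step of epidermal differentiation. Krt1 was at 32193, 45410 and 44317 CPM in the 3 Ivl:BRAFV600E tumours and at 1010, 11871 and 13009 CPM in the 3 Ivl:BRAFV600E-SOX2LSL tumours. In each Ivl:BRAFV600E tumour Krt1 ranked 2 among all genes by CPM, and with SOX2 it ranked 45, 4 and 3. Its mean was 40640 ± 7336 (SD, n = 3) without and 8630 ± 6623 CPM (SD, n = 3) with SOX2, 4.71-fold lower, and the log2 fold change of -2.24 (SE 0.83) missed the threshold (edgeR adjusted p = 0.149).

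Krt10 was at 28856, 36337 and 31841 CPM in Ivl:BRAFV600E and at 424, 3993 and 7213 CPM in Ivl:BRAFV600E-SOX2LSL tumours. It ranked 3 in each of the former and 176, 12 and 7 in the latter. The groups were 4.0-fold apart at their nearest points, the lowest Ivl:BRAFV600E and the highest Ivl:BRAFV600E-SOX2LSL tumour, against 2.47-fold for Krt1. The means differed 8.34-fold (log2 fold change -3.06, SE 0.88, edgeR adjusted p = 0.0935).

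Both genes varied more among tumours with SOX2 than among those without. Krt1 varied 12.9-fold and Krt10 17.0-fold between the highest and the lowest of them, beside 1.41-fold and 1.26-fold among Ivl:BRAFV600E tumours. Without Ivl:BRAFV600E-SOX2LSL tumour 1, which had the lowest values of both, the log2 fold changes were smaller and both genes were called, Krt1 at -1.71 (SE 0.27, edgeR adjusted p = 0.0179) and Krt10 at -2.53 (SE 0.33, edgeR adjusted p = 0.0112). In that fit 6 members were called lower, namely Krt1, Krt9, Krt10, Krt76, Krt78 and Krt80, where 3.1% of the 23535 genes tested were called lower and 3.59% higher.

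Krt10 was lower in proportion to its partner too. Per transcript length (RPKM, from the longest coding transcript), the ratio of Krt10 to Krt1 was 1.05, 0.938 and 0.842 in Ivl:BRAFV600E tumours. In Ivl:BRAFV600E-SOX2LSL tumours the ratio was 0.493, 0.394 and 0.650, with no overlap between groups. The order of the groups does not depend on how libraries were scaled, but the level of the ratio depends on the length taken for Krt1. With merged exon lengths, an alternative chosen after seeing the data, it was 1.87, 1.67 and 1.501 without and 0.878, 0.703 and 1.16 with SOX2, so that neither group can be said to hold equal amounts of the pair.

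Krt78 and Krt80 are type II keratins of differentiating epidermis, Krt80 being found in many epithelia near desmosomes. Krt78 was at 369, 583 and 506 CPM in Ivl:BRAFV600E and at 26.7, 170 and 131 CPM in Ivl:BRAFV600E-SOX2LSL tumours. Krt80 was at 557, 574 and 613 CPM in the former and at 139, 359 and 324 CPM in the latter. Both again had their lowest value in Ivl:BRAFV600E-SOX2LSL tumour 1, and neither overlapped between groups. The mean of Krt78 was 4.44-fold lower with SOX2 (log2 fold change -2.15, SE 0.60, edgeR adjusted p = 0.0884) and that of Krt80 2.12-fold lower (log2 fold change -1.08, SE 0.33, edgeR adjusted p = 0.105). Without that tumour both were called, at log2 fold changes of -1.69 (edgeR adjusted p = 0.0115) and -0.77 (edgeR adjusted p = 0.0175).

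Krt9, the type I keratin of palms and soles, had the lowest log2 fold change of the 8. It was at 13.6, 390 and 378 CPM in Ivl:BRAFV600E and at 0.0280, 0.0971 and 0.0361 CPM in Ivl:BRAFV600E-SOX2LSL tumours, in the latter 1, 3 and 1 counts. Pooled over the tumours of a group, 16783 counts stood against 5, a ratio of 4395 (95% exact interval 1883 to 13539, counting error only). Krt9 was called lower (log2 fold change -12.14, SE 1.67, edgeR adjusted p = 0.0209), although the fitted value depends on the prior count. It passed the filter only through Ivl:BRAFV600E tumours and so could be called only lower. The adjusted p lay between 6.93e-04 and 0.0694 when single tumours were left out, and the call was lost without Ivl:BRAFV600E tumour 2 (0.0694) or 3 (0.0596) and without Ivl:BRAFV600E-SOX2LSL tumour 2 (0.0625) or 3 (0.0559).

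Because Krt9 belongs to particular body sites, genes that mark position in the skin were read beside it. Of 10 such genes 9 were tested, and 3 were called lower and 0 higher, beside 1.51% and 2.39% of all genes tested. When any single Ivl:BRAFV600E tumour was left out, 1 was called lower. Among the 9, 6 had a log2 fold change below 0 and 3 above. Without overlap 4 were lower and 1 higher, beside 16% and 18.2% of all genes tested. Hoxc10 was at 10.1 to 13.9 CPM in Ivl:BRAFV600E tumours and at 1, 0 and 0 counts with SOX2 (edgeR adjusted p = 0.00184), Hoxc13 fell from 11.7 to 16.7 CPM to 1.09 to 2.56 CPM (edgeR adjusted p = 0.0175), and Hoxa13 was at 0.739 to 1.19 CPM in Ivl:BRAFV600E and at 0 in each Ivl:BRAFV600E-SOX2LSL tumour (edgeR adjusted p = 0.0238). Hoxc10, Hoxa13 and Hoxd13, the last not called, passed the filter only through Ivl:BRAFV600E tumours and could be called only in this direction. En1, a gene of ventral limb skin, was at 13.98, 47.02 and 14.06 CPM without and 3.52, 0.583 and 0.325 CPM with SOX2 (edgeR adjusted p = 0.0618). Aqp5, a water channel of sweat glands, was called lower (149 to 280 against 3.22 to 24.3 CPM, edgeR adjusted p = 0.0351), the only call among 9 sweat gland markers. Of these 9 markers, 4 had a log2 fold change below 0 and 5 above, with a median of 0.61. The gene higher without overlap was Pitx1, a factor of hindlimb development, at 25.6 to 31.4 against 32.4 to 43.7 CPM (edgeR adjusted p = 0.145). According to the study, mice of the Ivl:BRAFV600E model bore lesions on paws, ears and lips as well as on the back. The body site of the single sequenced tumours is not in the sources used here, and its part in the values of Krt9, and of Krt2 and Krt76, was not tested.

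Krt2 and Krt76 are type II keratins of the upper layers, Krt2 in the outer epidermis of sites such as ear, tail and sole, and Krt76 in the palate and other oral epithelium. Krt76 was scarce in both groups, at 2.05, 3.0 and 0.855 CPM in Ivl:BRAFV600E and at 0.0839, 0.259 and 0.144 CPM in Ivl:BRAFV600E-SOX2LSL tumours. Its highest count with SOX2 was 8 and its lowest without was 18, and it was called lower (log2 fold change -3.58, SE 0.63, edgeR adjusted p = 0.0335). Leaving out Ivl:BRAFV600E tumour 1 (0.133) or 2 (0.100), or Ivl:BRAFV600E-SOX2LSL tumour 2 (0.0660) or 3 (0.0771), took the edgeR adjusted p above 0.05, as did sex as a covariate (0.0980).

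Krt2 was at 43.1, 0.878 and 0.665 CPM in Ivl:BRAFV600E tumours and at 3 counts in each Ivl:BRAFV600E-SOX2LSL tumour (0.0839, 0.0971 and 0.108 CPM). A single library, Ivl:BRAFV600E tumour 1, gave 1265 of the 1298 counts of its group. The pooled ratio was 189 (95% exact interval 99.2 to 414, counting error only), and the log2 fold change was -7.22 (SE 1.94, edgeR adjusted p = 0.0800) with and -2.95 (edgeR adjusted p = 0.123) without that tumour. The size of the difference for Krt2 thus rests on 1 tumour, while its direction did not.

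Krt77, a type II keratin of mouse suprabasal epidermis and of sweat gland ducts, was the only member with a fold change above 0. It was at 0.273, 0.231 and 0.903 CPM in Ivl:BRAFV600E tumours and at 41.1, 0.259 and 12.3 CPM in Ivl:BRAFV600E-SOX2LSL tumours. With SOX2, tumours 1 and 3 were far above every Ivl:BRAFV600E tumour and tumour 2 was within their range, at 8 counts against 1471 and 340. The log2 fold change of 5.27 (SE 1.54) was not called (edgeR adjusted p = 0.0967), and without Ivl:BRAFV600E-SOX2LSL tumour 2 it was 5.85 (SE 0.76, edgeR adjusted p = 0.0377). Without tumour 1 of that group, which held 1471 of its 1819 counts, it was 3.75 (SE 1.30, edgeR adjusted p = 0.144). The tumour with the most Krt77 was the one with the least Krt1 and Krt10.

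The same tumour had the highest levels of the keratins of simple and ductal epithelia, with Krt8 at 106, 8.65 and 2.31 CPM and Krt19 at 86.8, 0.0324 and 0.0722 CPM in Ivl:BRAFV600E-SOX2LSL tumours 1, 2 and 3, beside at most 1.05 and 1.38 CPM in Ivl:BRAFV600E tumours. Krt19 therefore did not follow Krt77 in tumour 3. The 9 sweat gland markers, which include Krt7, Krt8, Krt18 and Krt19, summed to 191 to 316 CPM without SOX2 and to 50.5 to 338 CPM with it. Foxa1 was at or below 0.259 CPM in all 6 tumours and Foxi1 had 0 counts in the 3 with SOX2. The part of ductal cells in the Krt77 values was not tested.

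**Figure D2:**
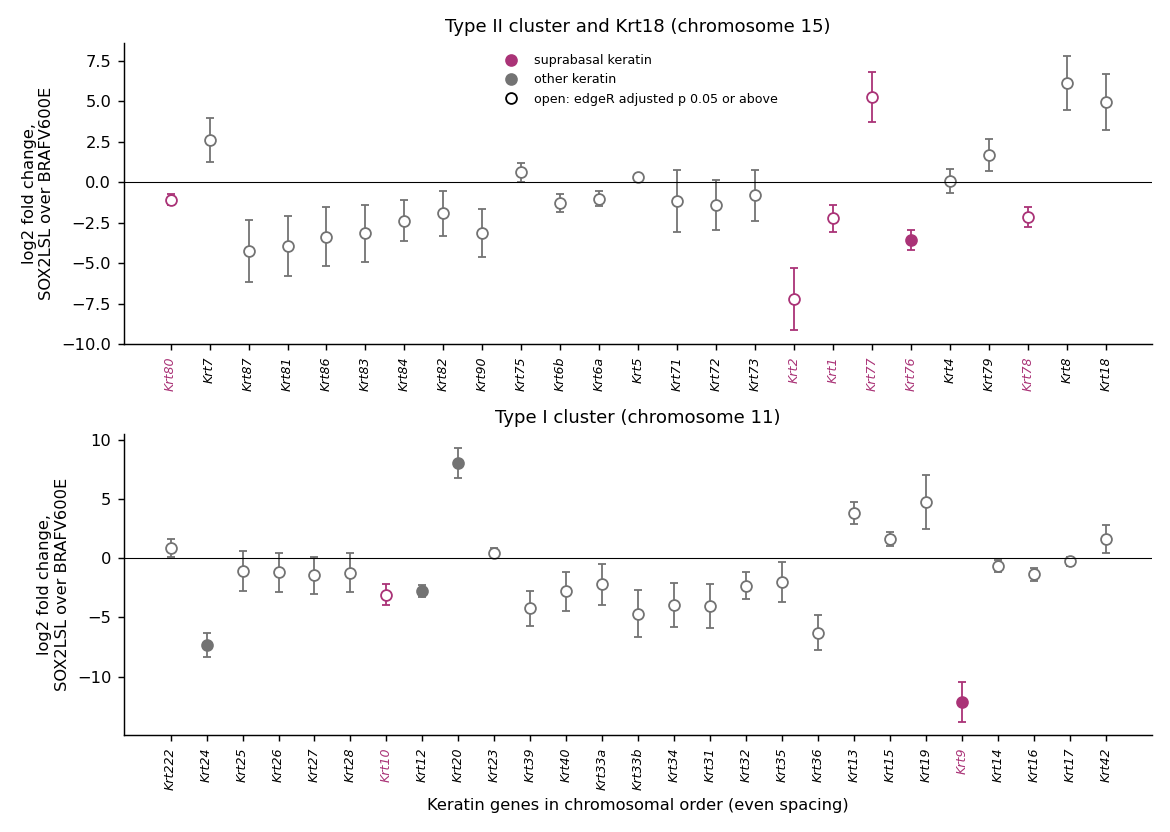
The log2 fold change (Ivl:BRAFV600E-SOX2LSL over Ivl:BRAFV600E, bars for SE) of the 52 keratin genes tested, in chromosomal order with even spacing and filled where the edgeR adjusted p was below 0.05. Krt77, at 5.27, lies between its neighbours Krt1 at -2.24 and Krt76 at -3.58.

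Krt77 has its place inside the type II cluster between members that were lower. It lies 7.94 kb from Krt1 on one side and 14.6 kb from Krt76 on the other, and Krt2 follows Krt1 at a distance of 27.3 kb. Among the 52 keratin genes tested, 44 are no members, and of these 2 were called lower and 1 higher. They are Krt24 (45.6 to 94.9 CPM without and 0 to 1.19 CPM with SOX2, edgeR adjusted p = 0.0206) and Krt12 (2.47 to 5.69 against 0.364 to 1.01 CPM, edgeR adjusted p = 0.0352), both named after their values were seen, and Krt20 (0.0341 to 0.143 against 4.37 to 64.7 CPM, edgeR adjusted p = 0.0269). Krt20 passed the filter only through tumours with SOX2, so that it could only be called higher, and its call was lost with sex as a covariate and without any single Ivl:BRAFV600E tumour. The median log2 fold change of the 44 was -1.24, and 4 of them were lower and 5 higher without overlap, smaller shares than the 16% and 18.2% of all genes tested.

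Levels of different keratins can be set side by side only per length. In Ivl:BRAFV600E tumours the order of mean RPKM was Krt1 (16554 ± 2988, SD, n = 3), Krt10 (15446 ± 1798), Krt80 (148 ± 7.29), Krt78 (141 ± 31.5), Krt9 (101 ± 82.8), Krt2 (5.70 ± 9.36), Krt76 (0.851 ± 0.465) and Krt77 (0.160 ± 0.128). The neighbours Krt1 and Krt10, Krt80 and Krt78, Krt78 and Krt9, and Krt2 and Krt76 lay closer than the larger SD of the pair. In Ivl:BRAFV600E-SOX2LSL tumours Krt1 (3515 ± 2698) and Krt10 (1851 ± 1622) were still the most abundant, followed by Krt80 (69.9 ± 30.2), Krt78 (31.8 ± 21.6) and Krt77 (6.11 ± 7.17), with Krt76, Krt2 and Krt9 at most at 0.112 RPKM in any tumour. There too Krt1 and Krt10 were closer than the larger SD, as were Krt77 and Krt76, and in tumour 2 Krt76 (0.112 RPKM) was above Krt77 (0.0884 RPKM). The step from Krt10 down to Krt80, the next member, was 104-fold in mean RPKM without and 26.5-fold with SOX2.

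Taken over all 53 annotated keratin genes, the 8 members made up 49.5, 38.6 and 42.5% of keratin RPKM in Ivl:BRAFV600E tumours and 5.85, 16.7 and 26.1% in Ivl:BRAFV600E-SOX2LSL tumours. Nearly all of this was Krt1 and Krt10. The basal keratins Krt5, Krt14 and Krt15 held 16.6, 20.9 and 18.4% without and 43.1, 34.6 and 31.1% with SOX2. The stress keratins Krt6a, Krt6b, Krt16 and Krt17, which keratinocytes switch on in wounds and in hyperproliferation, held 33.0, 40.4 and 38.7% without and 47.6, 47.7 and 41.2% with SOX2. In all 3 shares the groups did not overlap, and because shares sum to 100 they are not independent of each other. The total was smaller with SOX2, at 11469, 41156 and 33926 RPKM over all keratins against 54873, 94025 and 79337 RPKM without, so that a larger share is not a higher level.

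**Figure D3:**
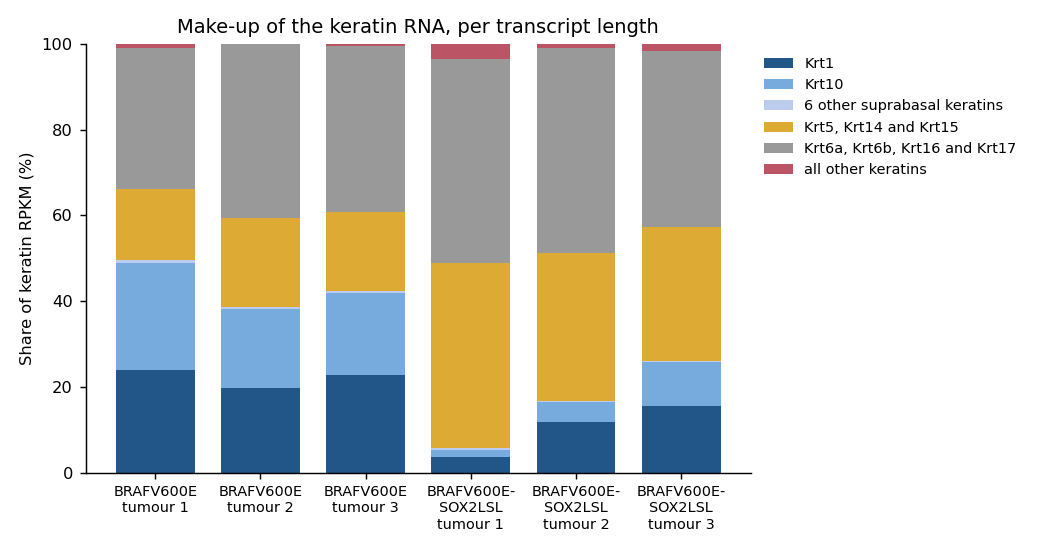
Share of all keratin RPKM (%, y axis) held by Krt1, Krt10, the other suprabasal keratins, basal keratins, stress keratins and all others in each tumour (x axis). The suprabasal share is 38.6 to 49.5% in Ivl:BRAFV600E and 5.85 to 26.1% in Ivl:BRAFV600E-SOX2LSL tumours, and the basal share is 16.6 to 20.9% and 31.1 to 43.1%.

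The ratio of Krt1 and Krt10 to their basal counterparts Krt5 and Krt14 sets the differentiated against the basal pair within each tumour, with no scaling between libraries. Per length, on the log2 RPKM scale, it was 1.57, 0.87 and 1.19 in Ivl:BRAFV600E tumours, with more suprabasal than basal keratin RNA in each. With SOX2 it was -3.003, -1.08 and -0.27, with more basal than suprabasal keratin RNA in each, although tumour 3 stood at 0.12 on the CPM scale, which takes no account of length. The means were 1.21 ± 0.35 and -1.45 ± 1.41 (SD, n = 3 each).

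By edgeR the basal keratins themselves gave no call. Krt5 was at 2561, 2668 and 2625 CPM without and 2371, 3899 and 3314 CPM with SOX2 (log2 fold change 0.29, SE 0.22, edgeR adjusted p = 0.452), and Krt14 was at 13433, 31244 and 22699 against 6527, 21146 and 15298 CPM (log2 fold change -0.65, SE 0.50, edgeR adjusted p = 0.447). Both overlapped between groups. Krt15, a keratin of hair follicle stem cells and basal cells, was at 2.63 to 16.6 without and 24.3 to 49.9 CPM with SOX2, without overlap and without a call (edgeR adjusted p = 0.159), but DESeq2 and keratinocyte-gene scaling each called it higher. None of the 4 stress keratins was called by edgeR and 2, Krt16 and Krt6b, were called lower by DESeq2, with edgeR log2 fold changes from -1.35 for Krt16 to -0.26 for Krt17, and Krt17 turned to 0.34 when libraries were scaled on keratinocyte genes.

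Keratins were also set against the summed counts of 20 general keratinocyte genes, Krt5 and Krt14 among them. Krt14 and Dsp weigh most in that sum, so it need not follow the keratinocyte content of a tumour. This scaling moved the median over all genes tested from a log2 fold change of 0.04 to 0.72. The 20 genes themselves then had a median of 0.59, with 6 called higher and 0 lower. On that scale the log2 fold changes were -1.81 for Krt1, -2.62 for Krt10, -1.69 for Krt78, -0.57 for Krt80 and 6.35 for Krt77. The test then called 6 members lower (Krt1, Krt2, Krt9, Krt10, Krt76 and Krt78) and 1 higher (Krt77), beside 0.823% and 8.89% of all genes in these directions, and Krt80 was further from a call (edgeR adjusted p = 0.345).

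**Figure D4:**
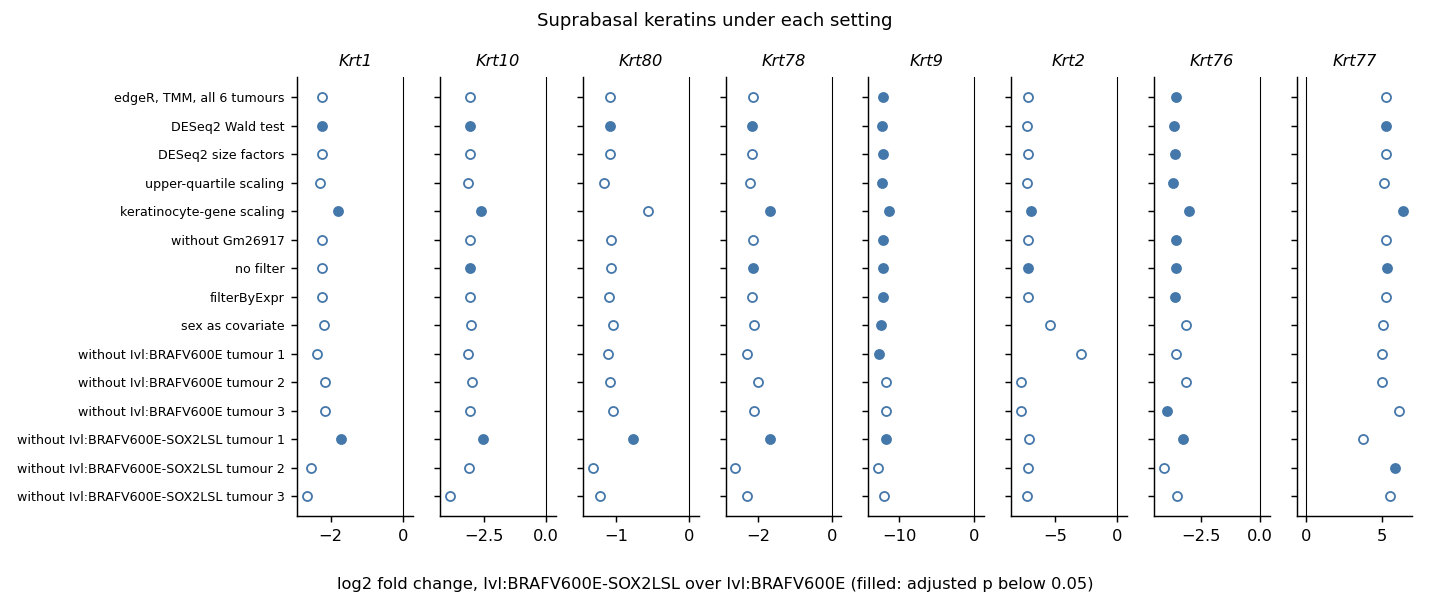
The log2 fold change of each suprabasal keratin (x axis, Ivl:BRAFV600E-SOX2LSL over Ivl:BRAFV600E) under each setting (y axis), filled where the adjusted p of that setting was below 0.05. Every point lies on the same side of 0 as the value from edgeR with TMM and 6 tumours, while the calls differ between settings, from 0 to 6 members lower.

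Other cells of the tumours differed between groups as well. All 12 skeletal muscle markers were higher with SOX2 without overlap, 10 of them called, with summed levels of 4.11 to 7.98 CPM in Ivl:BRAFV600E and 281 to 1232 CPM in Ivl:BRAFV600E-SOX2LSL tumours. Of the 12, 4 (Myh4, Tnnt3, Myog and Casq1) passed the filter only through tumours with SOX2 and could only come out higher. Of 8 fibroblast markers 0 were called, with 2 higher without overlap and sums of 743 to 5066 against 3936 to 8254 CPM. Of 7 immune cell markers 2 were called higher, Ptprc (10.1 to 17.3 against 26.5 to 43.2 CPM, edgeR adjusted p = 0.0483) and Csf1r (13.5 to 23.6 against 41.4 to 108 CPM, edgeR adjusted p = 0.0483). The 8 general keratinocyte markers, none called, had a median log2 fold change of 0.32, with 6 above 0 and with 3 higher (Cdh1, Itga6 and Itgb4) and 1 lower (Dsp) without overlap, while their sum, in which Krt14 and Dsp weigh most, was 28299 to 51610 against 17990 to 38065 CPM. All 8 sebaceous gland markers had a log2 fold change above 0 (median 1.40), 5 of them higher without overlap, and 0 were called. The 5 endothelial and 11 hair follicle markers tested gave no call. The part of these cells in the fold changes of single keratins was not tested, whereas the shares and ratios among keratins do not depend on RNA from cells that make no keratin.

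The wider programme of the spinous and granular layers was read from 35 genes of desmosomes, the cornified envelope and its enzymes and lipids. All 35 genes had a log2 fold change below 0 (median -1.69). Of these, 27 were lower without overlap and 6 were called lower, beside 16% and 1.51% of all genes tested. The list was chosen with earlier results of these data known, so its common direction is not independent of them. With sex as a covariate 0 were called, in groups of 2 females and 1 male without and 1 female and 2 males with SOX2. Of the 35, Tgm1 and Klk7 turned above 0 under keratinocyte-gene scaling. Called genes with the smallest p were Sprr1a, a small proline-rich envelope protein (1785 to 3135 CPM without, 466 to 743 with SOX2, edgeR adjusted p = 0.0238), Sbsn, the secreted protein suprabasin (866 to 1288 against 167 to 352 CPM, edgeR adjusted p = 0.0267), and Spink5, an inhibitor of the proteases that shed the outer layer (2141 to 3156 against 381 to 887 CPM, edgeR adjusted p = 0.0293). Serpinb12 had the lowest log2 fold change (-2.86, edgeR adjusted p = 0.0787) and Tgm1, an enzyme that crosslinks the envelope, the highest (-0.43, edgeR adjusted p = 0.506). Involucrin, whose promoter drives the Cre in both groups, was at 208, 40.4 and 76.4 CPM without and 72.5, 21.96 and 114 CPM with SOX2 and overlapped (log2 fold change -0.64, edgeR adjusted p = 0.611). Without Ivl:BRAFV600E-SOX2LSL tumour 1 the test called 21 of the 35, and without any other single tumour 0 or 1.

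Among 30 regulators of keratinocyte differentiation 2 were called lower and 0 higher, with a median log2 fold change of -0.35. The called genes were Hopx (119 to 138 against 37.9 to 63.3 CPM, edgeR adjusted p = 0.0288) and Maf (155 to 225 against 77.4 to 106 CPM, edgeR adjusted p = 0.0317), a transcription factor gene of differentiating keratinocytes. Zfp750, an activator of terminal differentiation, had the lowest log2 fold change (-1.27, edgeR adjusted p = 0.0648). Among genes above 0 the smallest p were those of Ovol2 (1.01, edgeR adjusted p = 0.0864), Gata3 (0.98, edgeR adjusted p = 0.0986) and Satb1 (1.76, edgeR adjusted p = 0.110), the last with the highest log2 fold change of the list. With keratinocyte-gene scaling the median of the list was 0.27, with 0 called lower and 2 higher, beside 0.823% and 8.89% of all genes. On each scale the list median lay below that over all genes tested, which was 0.04 with TMM and 0.72 with keratinocyte-gene scaling. With sex as a covariate 0 were called, and with single tumours left out 0 lower in 4 of the 6 fits, 1 without Ivl:BRAFV600E-SOX2LSL tumour 3 and 9 without Ivl:BRAFV600E-SOX2LSL tumour 1.

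**Figure D5:**
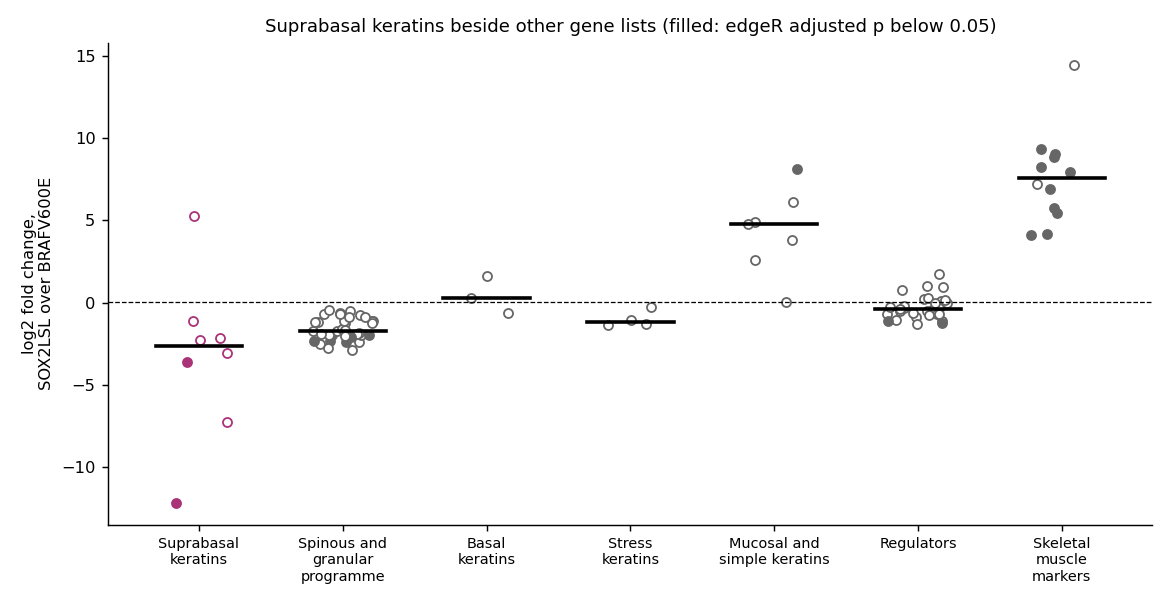
The log2 fold change (Ivl:BRAFV600E-SOX2LSL over Ivl:BRAFV600E) of the genes of 7 lists, filled where the edgeR adjusted p was below 0.05, with list medians as bars and that over all genes tested as a dashed line. The medians of the suprabasal keratins (-2.65) and of the spinous and granular programme (-1.69) lie below that of the basal keratins (0.29), and single genes of these lists overlap.

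The genes whose levels ran closest to those of Krt1, Krt10 and Krt77 over the 6 tumours were found by the root mean square difference of centred log2 CPM among genes of at least 1 CPM. Nearest to Krt1 were Serpinb12 (0.29), Gm11940 (0.38) and the phospholipase gene Pla2g4d (0.41), of which Gm11940 is the gene antisense to Krt10. Nearest to Krt10 were again Serpinb12 (0.34), Gm37496 (0.48) and Serpina12 (0.49). Among members, Krt78 (0.46) and Krt10 (0.51) were the closest to Krt1. The genes nearest to Krt77 were Grem1 (1.05), the gene of a secreted BMP antagonist, Pvalb (1.06), which encodes a calcium buffer found in fast muscle, and Cxcr3 (1.15), a chemokine receptor gene. These distances are wider than those around Krt1. All 3 genes shared with Krt77 the order of tumours 1, 3 and 2 with SOX2, from high to low. That order goes with their choice by nearness to Krt77 and is not a separate result. Grem1, for example, was at 106, 3.53 and 18.2 CPM in Ivl:BRAFV600E-SOX2LSL tumours 1, 2 and 3 and at 1.71 to 4.04 CPM in Ivl:BRAFV600E tumours.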

How the data were processed

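Bulk RNA of frozen tumours was sequenced after depletion of ribosomal RNA from 200 ng of total RNA, with paired reads of 150 bases per the labels. The authors deposited raw read counts per gene, with no normalisation. The submitters' processing notes name FastQC 0.11.8, Trim Galore, HISAT2 2.1.0 and featureCounts of Subread 1.6.3 on GRCm38. Handling of multimapping reads and of strand is not given in the sources used here. Columns are named by mouse and were assigned to groups from the mouse list of the study's source data. The group of 1 column was uncertain and it was not used, which leaves 3 tumours of 3 mice per group.

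A gene was tested if any 1 tumour held 5 or more reads of it. Counts were scaled by TMM and tested with edgeR 4.0.16 in R 4.3.3 (quasi-likelihood test, genotype as the only factor, Benjamini-Hochberg threshold 0.05). The study's methods use DESeq2, run here (1.42.0) as an alternative. Log2 CPM used a prior count of 2. The fit was tested on simulated counts of 23143 genes, in which it recovered 52 of 100 genes changed by a log2 fold change of 2 and 85 of 100 changed by 3, with 9 false calls. The members and gene lists were chosen with earlier results of these data known. Genes named from other lists were those with the extreme log2 fold changes and the smallest p in each direction, with Ivl, Krt5 and Krt14. En1, Hoxd13, Klk7, Krt12, Krt19, Krt24, Foxa1, Foxc1, Trpv6, Myog and Casq1 were named after their values were seen. Alternatives were other scalings, filters, sex as a covariate, removal of the most abundant gene, Gm26917, and each tumour left out in turn. Coordinates are from GENCODE M21. Figures were drawn with matplotlib 3.10.9.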

Additional observations from a re-analysis of the deposited data

How the results depend on the processing

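No paired analysis was possible because the columns carry no replicate numbers of the labels. No member changed sign under any of the 14 alternatives. Members called lower numbered 2 by edgeR with TMM, 6 by DESeq2, 6 with keratinocyte-gene scaling, 5 with no filter and 1 (Krt9) with sex as a covariate. Members called higher numbered 0, and 1 (Krt77) by DESeq2, with keratinocyte-gene scaling or with no filter. Genes called in all numbered 954, beside 3653 by DESeq2, 2372 with keratinocyte-gene scaling, 1759 with no filter and 228 with sex as a covariate, and 6280 had an unadjusted p below 0.05. With single tumours left out, 0 to 6 members were called lower, 0 to 1 higher and 22 to 1575 genes in all. The 6 came without Ivl:BRAFV600E-SOX2LSL tumour 1, and 0 without Ivl:BRAFV600E tumour 2 or Ivl:BRAFV600E-SOX2LSL tumour 2 or 3. DESeq2 gave no adjusted p for Krt2. DESeq2 size factors, upper-quartile scaling, removal of Gm26917 and filterByExpr called the same 2 members, Krt9 and Krt76. The group difference in the log2 ratio of Krt1 and Krt10 to Krt5 and Krt14 was -2.65 from CPM and -2.79 from RPKM on exon lengths. Depth limits Krt2, Krt9 and Krt76 in Ivl:BRAFV600E-SOX2LSL tumours and Krt77 in Ivl:BRAFV600E tumours. The cause of these differences between settings was not tested.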
